A study of Danio rerio with 246 samples.

Results

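Blood cells labelled Runx123_GFP were set against blood cells labelled cd41_GFPlow across all genes of the count table. The members were taken by label alone: 39 Runx123_GFP cells, all from plate 1, and 43 cd41_GFPlow cells, all from plate 3, which makes 82 of the 246 cells of the series. Both come from adult zebrafish, from the whole kidney marrow, where fish make blood, and both carry a green fluorescent reporter that was used to sort single cells into wells before amplification of polyadenylated RNA by a modified Smart-seq2 protocol. The Runx123_GFP reporter is named after the runt-related factor Runx, and the cd41_GFPlow gate is the dim fraction of a reporter named after CD41, the integrin encoded by itga2b. The labels name no promoter sequence, strain, age, sex, treatment or animal for either line. Each line is therefore 1 sample and its cells are not replicates, so no p-value was made, and line and plate cannot be told apart in any difference given here. The study sought to profile the blood cell types that its reporters mark.

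Blood stem cells give rise to red cells and thrombocytes, the nucleated clotting cells of fish, along one set of branches, and to neutrophils and macrophages along another. GATA-family and SCL-family transcription factors direct the first set, and the ETS factor PU.1 (SPI1) with the C/EBP factors direct the second. Red cell precursors import iron and make haem, while phagocytes build acid lysosomes, an oxidase that makes superoxide and enzymes that make leukotrienes. Reporters driven by stem cell or thrombocyte genes are commonly used in zebrafish to enrich immature blood cells, and dim CD41 reporter cells are usually taken as immature cells and bright ones as thrombocytes.

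Runx123_GFP cells had 47630 to 1908951 assigned reads each (median 877541), against 268422 to 1758073 (median 1090375) in cd41_GFPlow cells. Detected genes per cell were 540 to 4901 (median 2295) in Runx123_GFP and 696 to 4449 (median 2804) in cd41_GFPlow, and after thinning every cell to 200000 reads, which left 36 Runx123_GFP and 43 cd41_GFPlow cells, the medians were 2104 in Runx123_GFP and 2460 in cd41_GFPlow. The median percent of uniquely mapped read pairs was 76.5% in Runx123_GFP and 83.2% in cd41_GFPlow, and the median percent of reads on mitochondrial messenger RNA genes was 1.88% in Runx123_GFP and 2.29% in cd41_GFPlow. In Runx123_GFP 8 cells had fewer than 1000 genes, with 37.3 to 68.9% of read pairs uniquely mapped, and 7 of these 8 carried the thrombocyte list described below. In cd41_GFPlow 2 cells had so few genes, and neither carried that list. Cells are named by plate and well, so no cell is shared between the lines.

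The labels were first set against marker genes. The integrin gene itga2b, whose other name is CD41, ranged over cells from 0 to 37923 counts per 1000000 reads (CPM), with a median of 0 CPM, in Runx123_GFP, and from 0 to 9.33 CPM, with a median of 0 CPM, in cd41_GFPlow. It thus reached 10 CPM in 15 of 39 Runx123_GFP cells and in 0 of 43 cd41_GFPlow cells, which allows a share of up to 6.98% of cells there. The runx1 gene (RUNX1) reached 10 CPM in 2 Runx123_GFP cells and 3 cd41_GFPlow cells. The kit receptor gene KIT, a stem cell marker, did so in 1 Runx123_GFP cell and 3 cd41_GFPlow cells, and gata2b, a regulator of stem cell emergence, in 2 Runx123_GFP and 5 cd41_GFPlow cells. Transcripts of the genes that give the reporters their names were thus low or missing in the line named after them.

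Marker lists were scored per cell, and a cell carried a list once 3 or more of the list's genes reached 10 CPM in it. The thrombocyte list was carried by 26 of 39 Runx123_GFP cells (66.7%; exact Clopper-Pearson 95% interval 49.8 to 80.9%) and by 2 of 43 cd41_GFPlow cells (4.65%; 0.568 to 15.8%). The erythroid list was carried by 14 Runx123_GFP cells (35.9%; 21.2 to 52.8%) and 5 cd41_GFPlow cells (11.6%; 3.89 to 25.1%). The neutrophil list showed the opposite, with 0 Runx123_GFP cells, which allows up to 7.69% of cells, and 17 cd41_GFPlow cells (39.5%; 24.98 to 55.6%). The monocyte and macrophage list was carried by 10 Runx123_GFP cells (25.6%; 13.04 to 42.1%) and 27 cd41_GFPlow cells (62.8%; 46.7 to 77.0%). These intervals, like every interval and floor here, cover counting error only, since PCR copies are counted as separate reads and cells of 1 line may share an animal.

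Taken by cell, 31 Runx123_GFP cells and 5 cd41_GFPlow cells carried the erythroid or the thrombocyte list, and 10 Runx123_GFP cells and 35 cd41_GFPlow cells carried the neutrophil or the monocyte list. In Runx123_GFP 9 cells carried the erythroid and thrombocyte lists at once, 5 the erythroid list without the thrombocyte list and 17 the thrombocyte list without the erythroid list. Among the 9, GP1BB was in 9, NFE2 in 8 and tubb1 in 8, but itga2b, mpl and THBS1 were each in 1. Of these cells 1 had 8 genes of the thrombocyte list but only 47630 reads, so that 1 read passed 10 CPM. The rest had 3 or 4 of its 12 genes. The overlap therefore does not show cells of mixed type. The 10 Runx123_GFP cells with the monocyte and macrophage list carried only part of it. The complement genes c1qa, c1qb and c1qc and the receptor gene csf1ra had 0 reads in the whole line. In all, 10 of the 18 genes of that list had none. Other genes of the list were present. Gene csf1rb was in 9 Runx123_GFP cells at 294 CPM and in 23 cd41_GFPlow cells at 364 CPM. Genes cd74a and cd74b were each in 14 Runx123_GFP cells, against 31 and 29 cd41_GFPlow cells. The stem and progenitor list was carried by 26 Runx123_GFP and 25 cd41_GFPlow cells, but in part through different genes. Of this list TAL1, LMO2 and MEIS1 were called higher in Runx123_GFP, and CEBPA and CSF3R higher in cd41_GFPlow. Its genes KIT, GATA2, gata2b and gfi1aa were each in at most 2 Runx123_GFP and 5 cd41_GFPlow cells. The counts therefore do not show an equal share of progenitors. Lymphoid, kidney and endothelial lists were carried by 0 Runx123_GFP cells and at most 2 cd41_GFPlow cells. The lists hold some of the genes described below, among them itga2b, ITGB3, GP1BB, mpl, THBS1, tubb1, NFE2, RHAG, SLC4A1, EPOR, alas2, MEIS1, TAL1, LMO2, CEBPA and NCF1. For those genes the lists are not a separate measurement.

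**Figure D1:**
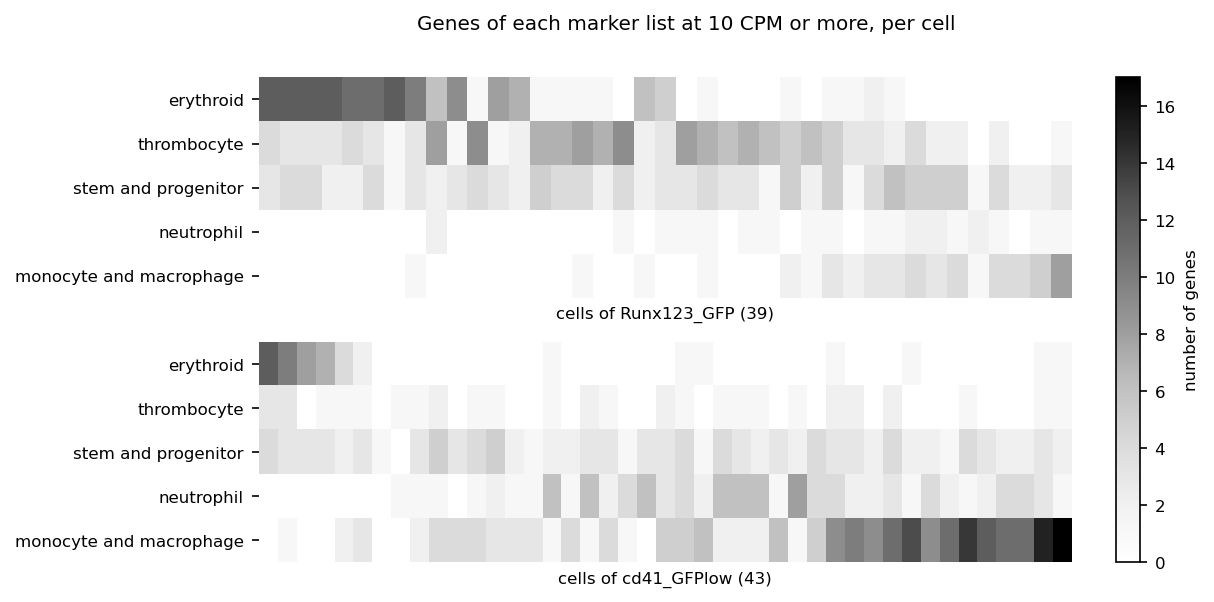
Each column is 1 cell and each row 1 marker list, and the grey scale gives the number of genes of that list at 10 CPM or more in the cell, with Runx123_GFP above and cd41_GFPlow below. Cells are ordered from most erythroid and thrombocyte genes to most neutrophil and monocyte genes. Most of the 39 Runx123_GFP cells are dark in the upper rows, most of the 43 cd41_GFPlow cells in the lower ones, and the stem and progenitor row is shaded across both.

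Of the 21876 genes counted, 9813 reached 10 CPM in the summed reads of at least 1 line and were counted as measured. A measured gene was called when its summed CPM differed at least 4-fold between the lines, on the scale of log2((CPM + 1)/(CPM + 1)), and the share of cells at 10 CPM or more differed by at least 20 percentage points in the same direction. By this rule of size 143 genes were higher in Runx123_GFP, which is 1.46% of those measured, and 289 were higher in cd41_GFPlow, which is 2.95%. With 4-fold alone the counts were 1451 in Runx123_GFP and 1417 in cd41_GFPlow, and with the gap in share alone 176 and 802. The excess in cd41_GFPlow thus came with the condition on shares. The median difference in share over all measured genes was -2.50 percentage points (Runx123_GFP minus cd41_GFPlow). Whether the fewer genes detected per Runx123_GFP cell go with this was not tested. The median log2 ratio over all measured genes was 0.15, and with TMM scaling it was -0.03, so each log2 ratio below lies on a scale whose centre moves by that much. Called genes were mostly present in a minority of cells: the median share of cells was 33.33% in Runx123_GFP and 4.65% in cd41_GFPlow for genes higher in Runx123_GFP, and 5.13% in Runx123_GFP and 32.6% in cd41_GFPlow for genes higher in cd41_GFPlow. Of the genes higher in Runx123_GFP 20 had no read in any cd41_GFPlow cell, and of those higher in cd41_GFPlow 62 had no read in any Runx123_GFP cell.

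Genes carried by most cells of both lines mostly differed less than 2-fold. Of 476 genes that reached 10 CPM in 50% or more of Runx123_GFP cells and also of cd41_GFPlow cells, 438 (92.0%) did so and 2 were called. Genes chosen by a high share in both lines have less room for the gap of 20 percentage points that a call needs. The low number of calls thus follows in part from the choice. The share within 2-fold was not set against that of all measured genes. Both called genes were higher in cd41_GFPlow. The class I antigen presentation gene mhc1uba was at 50.1 CPM in Runx123_GFP and 734 CPM in cd41_GFPlow, in 25 Runx123_GFP and 41 cd41_GFPlow cells, and the unnamed gene si:dkey-238c7.13 was in 26 Runx123_GFP and 43 cd41_GFPlow cells. At the edge of the rule, RRM1 was called with a difference of 20.1 percentage points and FAM53B was not with 19.9 (higher in Runx123_GFP), and MEF2C was called with -20.2 while tmem176l.3a was not with -19.98 (higher in cd41_GFPlow).

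**Figure D2:**
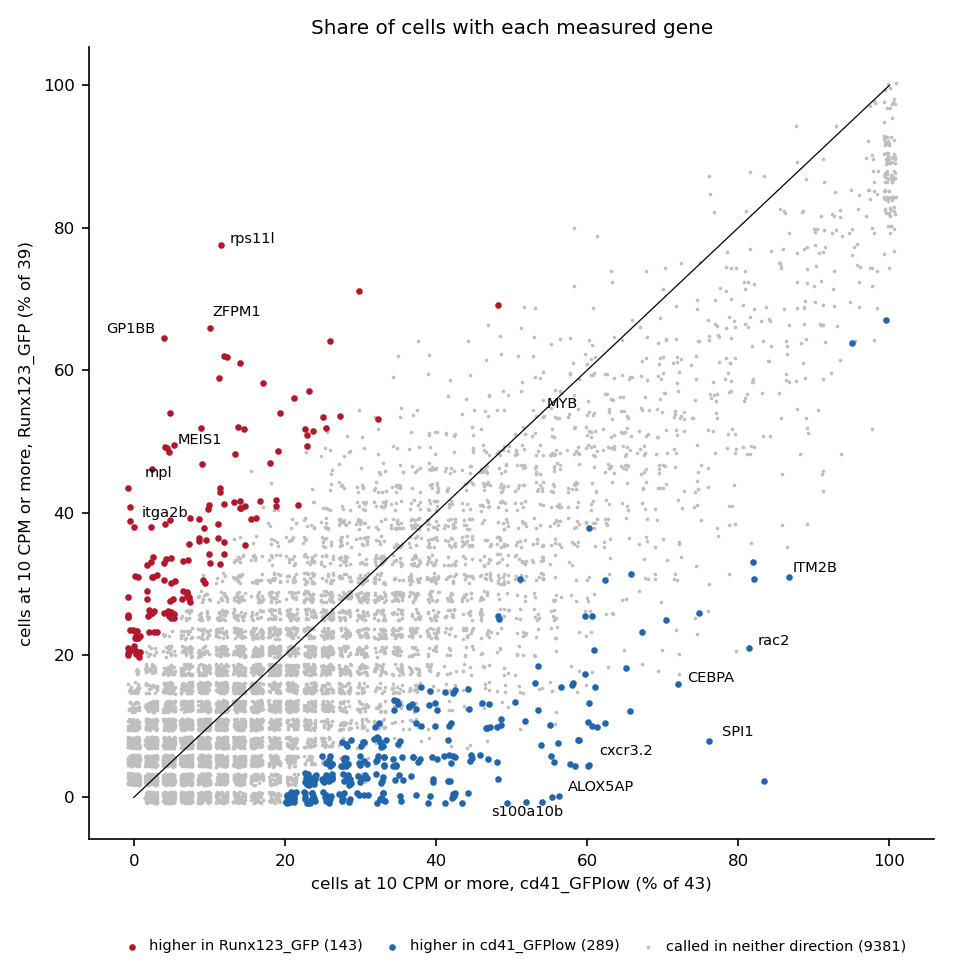
Each point is 1 measured gene, placed by the percent of cells at 10 CPM or more in cd41_GFPlow (horizontal axis) and in Runx123_GFP (vertical axis), with a small random offset to separate equal values and a line of equal shares. The 143 genes called higher in Runx123_GFP lie along the left edge, the 289 called higher in cd41_GFPlow along the bottom, and the broad band of uncalled genes leans below the line.

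Over all measured genes 1.46% were called higher in Runx123_GFP and 2.95% higher in cd41_GFPlow, and the functional classes are set against these shares. The larger share in cd41_GFPlow over all genes was not seen with 4-fold alone, as given above. Transcription factors had the highest share of genes higher in Runx123_GFP, 12 of 298 measured (4.03%), and receptors the highest share of genes higher in cd41_GFPlow, 17 of 223 (7.62%). Metabolic enzymes had 7 of 620 (1.13%) higher in Runx123_GFP, near the share over all genes, and 38 (6.13%) higher in cd41_GFPlow. Transporters had 6 of 295 (2.03%) higher in Runx123_GFP and 12 (4.07%) higher in cd41_GFPlow, both near the shares over all genes. Receptors were also the class with the lowest median, at a log2 ratio of -0.72, against 0.32 for transcription factors, -0.08 for transporters and -0.10 for metabolic enzymes. These classes were matched by gene symbol, and 571 receptor, 551 transcription factor, 697 transporter and 917 metabolic genes of the table were in them before the filter on low values, so genes that passed it did so in at least the line where they are high.

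**Figure D3:**
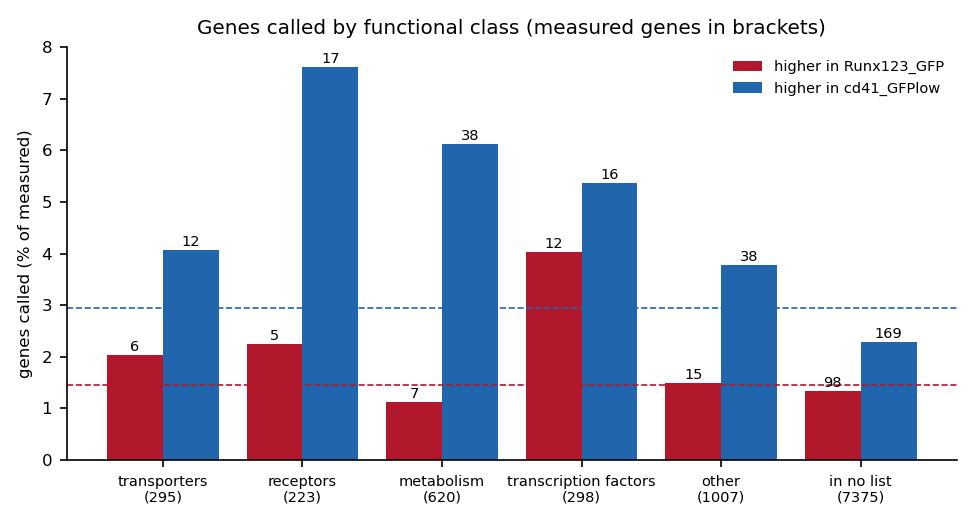
Bars give the percent of measured genes of each class that were called, higher in Runx123_GFP on the left and higher in cd41_GFPlow on the right of each pair, with the number of genes on each bar. Dashed lines give the same percent over all 9813 measured genes, 1.46% and 2.95%. The receptor and metabolism bars for cd41_GFPlow are the tallest, and the transcription factor bar is the tallest for Runx123_GFP.

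Transcription factors of the erythroid and thrombocyte branch were higher in Runx123_GFP. ZFPM1 (FOG1), the cofactor of GATA1, ranged over cells from 0 to 4768 CPM with a median of 300.3 CPM in Runx123_GFP, and from 0 to 289 CPM with a median of 0 CPM in cd41_GFPlow. It reached 10 CPM in 26 Runx123_GFP cells (66.7%; 49.8 to 80.9%) and 4 cd41_GFPlow cells (9.30%; 2.59 to 22.1%), so most cells of the first line had it and few of the second did. Summed over cells it was at 653 CPM in Runx123_GFP and 10.8 CPM in cd41_GFPlow, a ratio of 60.5 (exact 95% interval 55.4 to 66.1). Gene gata1a, the master regulator of red cell genes, reached 10 CPM in 20 Runx123_GFP and 4 cd41_GFPlow cells, with 415 CPM in Runx123_GFP and 74.4 CPM in cd41_GFPlow (5.58-fold). TAL1 (SCL), which binds DNA together with GATA1 and LMO2, reached it in 20 Runx123_GFP and 6 cd41_GFPlow cells, with 764 CPM in Runx123_GFP and 48.3 CPM in cd41_GFPlow (15.8-fold), and the bridging protein gene LMO2 in 23 Runx123_GFP and 7 cd41_GFPlow cells (9.20-fold). The repressor gene GFI1B, needed in red cells and thrombocytes, was in 19 Runx123_GFP and 2 cd41_GFPlow cells (25.5-fold). NFE2, a leucine zipper factor of platelet and globin genes, was in 24 Runx123_GFP and 6 cd41_GFPlow cells (5.89-fold), and MEF2A, a factor of the MADS family, in 25 Runx123_GFP and 11 cd41_GFPlow cells (4.52-fold).

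A second group of factors higher in Runx123_GFP belongs to the homeobox family. MEIS1, a stem cell and megakaryocyte factor in mammals, ranged from 0 to 5556 CPM over Runx123_GFP cells and from 0 to 291 CPM over cd41_GFPlow cells, with medians of 0 CPM in both. It reached 10 CPM in 19 Runx123_GFP cells and 2 cd41_GFPlow cells, and 16 of the 19 carried the thrombocyte list while 1 carried the erythroid list. Its partner gene pbx1a was at 362 CPM in Runx123_GFP, in 11 cells, and had 0 reads in cd41_GFPlow; 10 of these 11 cells also had MEIS1. The remaining factors higher in Runx123_GFP were E2F4, nr1d2a and hif1aa. E2F4, a cell cycle repressor, was in 17 Runx123_GFP and 5 cd41_GFPlow cells. The clock-linked receptor gene nr1d2a was in 10 Runx123_GFP cells and 1 cd41_GFPlow cell. Gene hif1aa, for a subunit of the transcription factor HIF1, was in 9 Runx123_GFP cells at 382 CPM and had 0 reads in cd41_GFPlow. Of 28 measured genes in the homeobox and LIM-only list 3 were higher in Runx123_GFP (MEIS1, pbx1a and LMO2) and 1 was higher in cd41_GFPlow (HLX). These are 10.7% and 3.57%, against 1.46% and 2.95% of all measured genes. The median log2 ratio of these 28 genes was 1.46. It covers only genes that reached 10 CPM in either line, which were 28 of the 85 listed.

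Factors of the granulocyte and macrophage branch were higher in cd41_GFPlow. SPI1, which encodes PU.1, ranged over cells from 0 to 1139 CPM with a median of 0 CPM in Runx123_GFP, and from 0 to 2612 CPM with a median of 433 CPM in cd41_GFPlow. It reached 10 CPM in 3 Runx123_GFP cells (7.69%; 1.62 to 20.9%) and 33 cd41_GFPlow cells (76.7%; 61.4 to 88.2%). The few Runx123_GFP cells that had it lay within the range of the cd41_GFPlow cells, with a median of 980 CPM among the 3 Runx123_GFP cells and 625 CPM among the 33 cd41_GFPlow cells. Summed levels were 75.6 CPM in Runx123_GFP and 531 CPM in cd41_GFPlow, 7.03-fold higher in cd41_GFPlow (6.75 to 7.31). CEBPA, which opens the granulocyte programme, was in 6 Runx123_GFP and 31 cd41_GFPlow cells, at 126 CPM in Runx123_GFP and 1000 CPM in cd41_GFPlow. CEBPB, its relative in activated phagocytes, was in 5 Runx123_GFP and 26 cd41_GFPlow cells (17.1-fold higher in cd41_GFPlow), and the second PU.1 gene spi1a in 4 Runx123_GFP and 20 cd41_GFPlow cells (6.27-fold higher in cd41_GFPlow).

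Other factors higher in cd41_GFPlow reached beyond the textbook myeloid pair. The stress sensor gene atf6 of the endoplasmic reticulum was in 4 Runx123_GFP cells and 26 cd41_GFPlow cells (6.76-fold higher in cd41_GFPlow). The homeobox gene HLX was in 2 Runx123_GFP and 18 cd41_GFPlow cells (20.8-fold), and JUNB, an early response gene, in 1 Runx123_GFP cell and 15 cd41_GFPlow cells (6.40-fold), all 15 of which carried the monocyte list. Another gene under the symbol JUNB leaned the other way without a call, at 29.2 CPM in 8 Runx123_GFP cells and 16.9 CPM in 6 cd41_GFPlow cells. RARG, a retinoic acid receptor, had 0 reads in Runx123_GFP and 65.2 CPM in cd41_GFPlow, from 12 cells, which is at least 779-fold higher in cd41_GFPlow against a floor of 3 reads in the other line. The oxysterol receptor gene NR1H3 was in 6 Runx123_GFP and 16 cd41_GFPlow cells at 13.4 CPM in Runx123_GFP and 173 CPM in cd41_GFPlow. Further called factors were klf2b, ID1, ZBTB46, stat5a and a gene under the symbol MEF2C, in 2 to 5 Runx123_GFP cells and 11 to 17 cd41_GFPlow cells.

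Gene gata1a and SPI1 were never both at 10 CPM in 1 cell. In Runx123_GFP 20 cells had gata1a and 3 had SPI1, and in cd41_GFPlow 4 cells had gata1a and 33 had SPI1. In Runx123_GFP gata1a was seen together with ZFPM1 in 15 cells, with TAL1 in 16 and with GFI1B in 15. In cd41_GFPlow SPI1 was seen together with CEBPA in 27 cells. The progenitor factor MYB, by contrast, was even between the lines: it reached 10 CPM in 21 Runx123_GFP cells (53.8%; 37.2 to 69.9%) and 23 cd41_GFPlow cells (53.5%; 37.7 to 68.8%), at 289.9 CPM in Runx123_GFP and 259.7 CPM in cd41_GFPlow. Of the 21 MYB cells of Runx123_GFP 15 had TAL1 and 4 had CEBPA, and of the 23 of cd41_GFPlow 5 had TAL1 and 16 had CEBPA. TAL1 and CEBPA were called because they differ between the lines. Over all cells TAL1 was in 20 Runx123_GFP and 6 cd41_GFPlow cells, and CEBPA in 6 Runx123_GFP and 31 cd41_GFPlow cells. The counts among MYB cells are therefore no separate result about those cells. Forkhead genes had no call in either direction among 15 measured, and SOX and TCF/LEF genes none among 8. By comparison, 1.46% of all measured genes were called higher in Runx123_GFP and 2.95% higher in cd41_GFPlow. The lack of calls in lists this small therefore does not set these families apart.

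**Figure D4:**
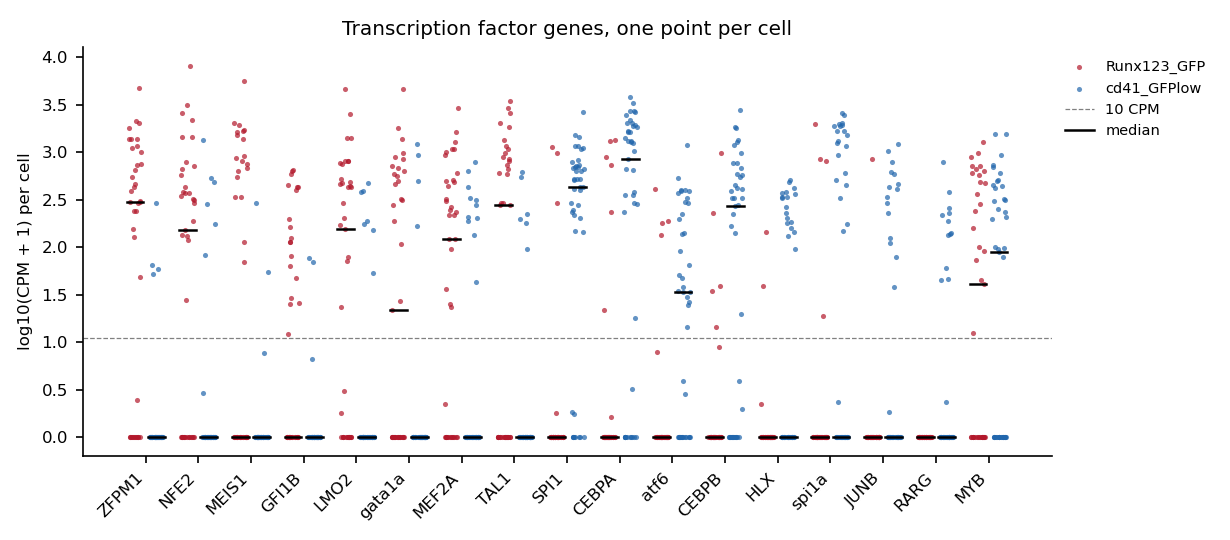
Each point is 1 cell, with log10(CPM + 1) on the vertical axis, Runx123_GFP left of cd41_GFPlow for each gene, short black bars at the medians and a dashed line at 10 CPM. The 8 genes from ZFPM1 to TAL1 are present in more Runx123_GFP cells, the 8 from SPI1 to RARG in more cd41_GFPlow cells, and MYB at the right is present in about equal shares of both.

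The 5 receptor genes higher in Runx123_GFP included those for von Willebrand factor, thrombopoietin and fibrinogen. GP1BB, a chain of the receptor for von Willebrand factor, ranged from 0 to 10603 CPM over Runx123_GFP cells with a median of 268 CPM, and from 0 to 64.1 CPM over cd41_GFPlow cells with a median of 0 CPM. It reached 10 CPM in 25 Runx123_GFP cells (64.1%; 47.2 to 78.8%) and 2 cd41_GFPlow cells, whose levels lay below most of the 25. Its summed ratio was 432 (361 to 522), from 1066 CPM in Runx123_GFP and 2.47 CPM in cd41_GFPlow. The thrombopoietin receptor gene mpl was in 17 Runx123_GFP cells at up to 10333 CPM and had 0 reads in cd41_GFPlow, at least 13729-fold higher against the floor of 3 reads. The integrin gene itga2b was at 1595 CPM in Runx123_GFP and 0.314 CPM in cd41_GFPlow. Its partner ITGB3, which completes the fibrinogen receptor, was in 8 Runx123_GFP cells at 29.3 CPM and in 0 cd41_GFPlow cells. Another gene under the symbol ITGB3 had no call, at 44.5 CPM in 2 Runx123_GFP cells and 0 reads in cd41_GFPlow. P2RY13, an ADP receptor gene, was in 11 Runx123_GFP cells and 1 cd41_GFPlow cell, at 252 CPM in Runx123_GFP and 18.7 CPM in cd41_GFPlow.

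These receptors did not mark the same Runx123_GFP cells. GP1BB was in 11 of the 14 cells with the erythroid list, whereas mpl, itga2b, P2RY13 and ITGB3 were each in 1 of the 14. All 15 itga2b cells, all 11 P2RY13 cells and all 8 ITGB3 cells carried the thrombocyte list, which itself holds itga2b and ITGB3. Genes mpl and itga2b were together in 13 cells. The erythropoietin receptor gene EPOR was in 12 Runx123_GFP and 6 cd41_GFPlow cells at 102 CPM in Runx123_GFP and 14.4 CPM in cd41_GFPlow, which is past 4-fold but short of the rule on shares. A call for P2RY13 and ITGB3 was lost when cells with fewer than 1000 genes were left out. The call for ITGB3 was also lost without its highest cell, after thinning to 200000 reads and with the filter of 50 CPM.

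The 17 receptor genes higher in cd41_GFPlow included several that are known from phagocytes, and also TIE1, a gene of the endothelial list, which was in 0 Runx123_GFP and 10 cd41_GFPlow cells at 51.8 CPM in cd41_GFPlow. The Fc receptor chain gene fcer1gl, an adaptor that signals for several activating receptors, ranged from 0 to 285 CPM over Runx123_GFP cells with a median of 0 CPM, and from 0 to 3276 CPM over cd41_GFPlow cells with a median of 372 CPM. It was in 2 Runx123_GFP cells and 26 cd41_GFPlow cells (60.5%; 44.4 to 75.0%), 46.2-fold higher in cd41_GFPlow (42.6 to 50.1). The chemokine receptor gene cxcr3.2, which guides zebrafish macrophages, was in 2 Runx123_GFP and 26 cd41_GFPlow cells at 37.1 CPM in Runx123_GFP and 465 CPM in cd41_GFPlow. The integrin gene itgb2, the beta chain of leukocyte integrins, was in 4 Runx123_GFP and 26 cd41_GFPlow cells at 42.4 CPM in Runx123_GFP and 629 CPM in cd41_GFPlow, all 4 of the Runx123_GFP cells being among the 8 with neither erythroid nor thrombocyte list. The leukotriene B4 receptor gene LTB4R was in 1 Runx123_GFP cell and 15 cd41_GFPlow cells, the oxysterol receptor gene GPR183 in 2 Runx123_GFP and 18 cd41_GFPlow cells, and ccr12a in 2 Runx123_GFP and 17 cd41_GFPlow cells, all 17 with the monocyte list. CSF3R, the receptor for granulocyte colony-stimulating factor, was in 2 Runx123_GFP and 13 cd41_GFPlow cells at 7.84 CPM in Runx123_GFP and 109.6 CPM in cd41_GFPlow.

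By receptor family the split was uneven. Over all 223 measured receptor genes 130 had a log2 ratio below 0. A gene was measured once it reached 10 CPM in either line. The directions and medians below therefore cover only genes that passed in the line where they are higher, and not the rest of each family. All 10 measured Fc, Ig-domain and paired receptor genes had lower summed CPM in Runx123_GFP, with a median log2 ratio of -4.04, and 4 of the 10 were called (fcer1gl, dicp3.3, dicp3.1 and pigrl2.4). Of 12 chemokine and chemoattractant receptor genes 11 were lower in Runx123_GFP, with a median of -3.82, or -4.88 with genes at 0 reads set at their bounds, and 3 were called. Adhesion receptors, by contrast, had 3 of 49 called in each direction (6.12%). Notch, Wnt, Hedgehog, semaphorin and ephrin receptors had 0 of 17 called with a median of 0.94, and TGF-beta and BMP receptors 0 of 7. As 1.46% of all measured genes were called higher in Runx123_GFP and 2.95% in cd41_GFPlow, 0 calls in lists this small do not set these 2 families apart. The dicp genes and pigrl2.4 belong to large gene families whose members can share reads, so their single values are uncertain.

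Of the 6 transporter genes higher in Runx123_GFP 3 are known for red cell membranes or haem synthesis (SLC4A1, SLC25A37 and ABCB10). SLC4A1, the chloride and bicarbonate exchanger (band 3) of the red cell membrane, ranged from 0 to 29520 CPM over Runx123_GFP cells and from 0 to 5462 CPM over cd41_GFPlow cells, with medians of 0 CPM in both. It was in 14 Runx123_GFP cells and 4 cd41_GFPlow cells, and all 14 carried the erythroid list, which holds it. Its summed level was 3169 CPM in Runx123_GFP and 311 CPM in cd41_GFPlow, a ratio of 10.2 (10.004 to 10.4). SLC25A37 (mitoferrin), the carrier that brings iron into mitochondria for haem, was in 15 Runx123_GFP and 5 cd41_GFPlow cells at 131 CPM in Runx123_GFP and 14.4 CPM in cd41_GFPlow, 13 of the 15 with the erythroid list. ABCB10, a mitochondrial transporter needed for haem synthesis, was in 14 Runx123_GFP and 4 cd41_GFPlow cells at 227 CPM in Runx123_GFP and 12.1 CPM in cd41_GFPlow, and 12 of its 14 Runx123_GFP cells also had SLC4A1. The phosphate importer gene SLC20A1 was in 13 Runx123_GFP and 3 cd41_GFPlow cells at 212 CPM in Runx123_GFP and 25.8 CPM in cd41_GFPlow, while another gene under that symbol was even, at 185 CPM in Runx123_GFP and 136 CPM in cd41_GFPlow.

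Among 56 measured ion channel genes 2 were higher in Runx123_GFP (3.57%, against 1.46% of all measured genes) and 0 in cd41_GFPlow, and 28 lay above and 28 below a log2 ratio of 0. ANO5, a calcium-activated membrane protein of the anoctamin family, was in 10 Runx123_GFP and 2 cd41_GFPlow cells at 399.5 CPM in Runx123_GFP and 6.52 CPM in cd41_GFPlow, and 9 of the 10 carried the thrombocyte list; its call was lost in cells of at least 1000 genes. The volume-regulated anion channel gene lrrc8da was in 13 Runx123_GFP and 5 cd41_GFPlow cells at 149 CPM in Runx123_GFP and 34.1 CPM in cd41_GFPlow, and this call did not hold with TMM scaling, with mean CPM per cell or after thinning. RHAG, an ammonia channel of the red cell membrane outside the transporter list, was in 24 Runx123_GFP and 5 cd41_GFPlow cells at 1145 CPM in Runx123_GFP and 198 CPM in cd41_GFPlow. It was carried more widely than SLC4A1: 14 of its 24 Runx123_GFP cells had the erythroid list and 19 the thrombocyte list. Transferrin receptor genes, which bring in iron, were split without a call, with tfr1a in 12 Runx123_GFP and 6 cd41_GFPlow cells and tfr1b in 14 Runx123_GFP and 30 cd41_GFPlow cells.

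Transporter genes higher in cd41_GFPlow came from several families. Of 30 measured amino acid carriers 3 were higher in cd41_GFPlow and 0 in Runx123_GFP, with a median log2 ratio of -0.20, and of 38 carriers of organic ions, haem and lipids 1 was (2.63%, against 2.95% of all measured genes), with a median of -0.04. SLC7A3, a carrier of arginine and lysine, ranged from 0 to 21.97 CPM over Runx123_GFP cells and from 0 to 2012 CPM over cd41_GFPlow cells. It was in 1 Runx123_GFP cell and 17 cd41_GFPlow cells, 282-fold higher in cd41_GFPlow (196 to 421), from 0.809 CPM in Runx123_GFP and 228 CPM in cd41_GFPlow. A second gene under the symbol SLC7A3 leaned the other way without a call, at 89.9 CPM in Runx123_GFP and 27.5 CPM in cd41_GFPlow, in 9 cells of each. The cystine exchanger gene slc7a11, which feeds glutathione synthesis, had 0 reads in Runx123_GFP and was in 9 cd41_GFPlow cells at 41.2 CPM. SPNS3, related to lipid exporters, had 0 reads in Runx123_GFP and was in 14 cd41_GFPlow cells at 256 CPM, at least 3061-fold higher in cd41_GFPlow. The sodium pump gene atp1a3a was in 2 Runx123_GFP and 17 cd41_GFPlow cells, the lysosomal lipid transporter gene ABCA2 in 1 Runx123_GFP cell and 15 cd41_GFPlow cells, and the zinc transporter gene SLC39A7 in 6 Runx123_GFP and 18 cd41_GFPlow cells, the last at 4.07-fold and without a call in cells of at least 1000 genes.

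The vacuolar proton pump, which acidifies lysosomes, was the transporter family with the most calls. Of 20 measured subunit genes 4 were higher in cd41_GFPlow and 0 were higher in Runx123_GFP. Of all measured genes 2.95% were called higher in cd41_GFPlow and 1.46% higher in Runx123_GFP. Of the 20 subunit genes 16 had a log2 ratio below 0, with a median of -1.01. These values cover only the 20 of 25 listed genes that reached 10 CPM in either line. TCIRG1, a membrane subunit, was in 3 Runx123_GFP and 14 cd41_GFPlow cells at 27.3 CPM in Runx123_GFP and 266 CPM in cd41_GFPlow, and all 14 cd41_GFPlow cells carried the monocyte list. ATP6V1A, a catalytic subunit, was in 3 Runx123_GFP and 14 cd41_GFPlow cells (9.39-fold higher in cd41_GFPlow), ATP6V1G1 in 10 Runx123_GFP and 21 cd41_GFPlow cells (5.03-fold) and ATP6V0C in 15 Runx123_GFP and 26 cd41_GFPlow cells, at 115 CPM in Runx123_GFP and 521 CPM in cd41_GFPlow. Another gene under the symbol ATP6V1A had no call, at 90.3 CPM in 10 Runx123_GFP cells and 188 CPM in 18 cd41_GFPlow cells. Summed over the 20 genes the pump was at 1326 CPM in Runx123_GFP and 2906 CPM in cd41_GFPlow. Summed over 34 measured genes mitochondrial carriers were level, at 8199 CPM in Runx123_GFP and 8272 CPM in cd41_GFPlow. Of the 34, SLC25A37 was the 1 called, higher in Runx123_GFP (2.94%, against 1.46% of all measured genes).

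**Figure D5:**
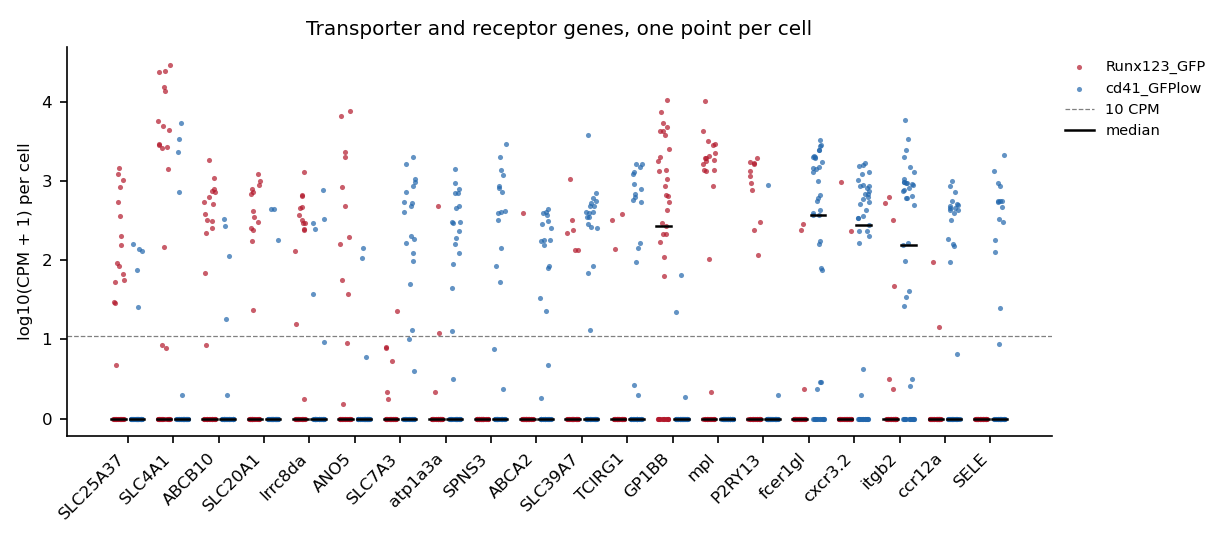
Each point is 1 cell, with log10(CPM + 1) on the vertical axis, Runx123_GFP left of cd41_GFPlow for each gene, short black bars at the medians and a dashed line at 10 CPM. Transporter genes run from SLC25A37 to TCIRG1 and receptor genes from GP1BB to SELE. Medians lie above 0 in Runx123_GFP for GP1BB and in cd41_GFPlow for fcer1gl, cxcr3.2 and itgb2, while the remaining genes shown are present in fewer than 50% of the cells of either line.

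Haem metabolism leaned to Runx123_GFP. Gene blvrb, which encodes biliverdin reductase B, ranged from 0 to 3993 CPM with a median of 237 CPM over Runx123_GFP cells, and from 0 to 912 CPM with a median of 0 CPM over cd41_GFPlow cells. It was in 22 Runx123_GFP and 9 cd41_GFPlow cells at 684 CPM in Runx123_GFP and 77.8 CPM in cd41_GFPlow (8.79-fold), spread over 13 cells with the erythroid list and 17 with the thrombocyte list. Of 28 measured genes of haem and iron-sulfur cluster synthesis 22 had a log2 ratio above 0, with a median of 1.32. These values cover only the 28 of 32 listed genes that reached 10 CPM in either line. Of the 28, 2 were called higher in Runx123_GFP (7.14%, against 1.46% of all measured genes), blvrb among them. The ferrochelatase gene FECH was at 71.1 CPM in Runx123_GFP and 7.40 CPM in cd41_GFPlow, CPOX at 221 CPM in Runx123_GFP and 39.2 CPM in cd41_GFPlow and alas2, the red cell enzyme that starts the pathway, at 893 CPM in Runx123_GFP and 22.5 CPM in cd41_GFPlow, each past 4-fold but short of 20 percentage points in share.

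The other enzymes higher in Runx123_GFP act on DNA precursors and lipids. The lipid families had more calls the other way, as did all measured genes (1.46% higher in Runx123_GFP and 2.95% in cd41_GFPlow). Of 35 fatty acid synthesis and desaturation genes 1 was higher in Runx123_GFP (2.86%) and 4 in cd41_GFPlow (11.4%). Of 78 sphingolipid and phospholipid genes 1 was higher in Runx123_GFP (1.28%) and 6 in cd41_GFPlow (7.69%). RRM1 and RRM2, the subunits of ribonucleotide reductase, were in 16 Runx123_GFP and 9 cd41_GFPlow cells and in 16 Runx123_GFP and 6 cd41_GFPlow cells, at 6.04-fold and 5.17-fold, and they were together in 13 Runx123_GFP cells and 3 cd41_GFPlow cells. The call for RRM1 was lost after thinning to 200000 reads and without the most-read cell of each line. A second gene under the symbol RRM2 was at 1.40 CPM in Runx123_GFP and 23.7 CPM in cd41_GFPlow without a call. The replication origin gene ORC1 was in 18 Runx123_GFP cells and 1 cd41_GFPlow cell at 141 CPM in Runx123_GFP and 9.85 CPM in cd41_GFPlow, and 17 of its 18 Runx123_GFP cells carried the thrombocyte list while 2 carried the erythroid list. GPAM, which starts glycerolipid synthesis, was in 10 Runx123_GFP and 2 cd41_GFPlow cells, the lipid peroxide reductase gene gpx4a in 12 Runx123_GFP and 2 cd41_GFPlow cells, and pld7, named as a phospholipase D, in 12 Runx123_GFP cells and 1 cd41_GFPlow cell.

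Enzyme genes higher in cd41_GFPlow included those of leukotriene synthesis and superoxide production. ALOX5AP, which presents arachidonic acid to 5-lipoxygenase, had 0 reads in all 39 Runx123_GFP cells, which allows a share of up to 7.69%. It ranged from 0 to 1530 CPM with a median of 122.5 CPM over cd41_GFPlow cells, in 24 of 43 (55.8%; 39.9 to 70.9%), and was at least 3593-fold higher there. LTA4H, which makes leukotriene B4, was in 2 Runx123_GFP and 20 cd41_GFPlow cells at 7.31 CPM in Runx123_GFP and 539 CPM in cd41_GFPlow, and it was together with ALOX5AP in 14 cd41_GFPlow cells. The oxidase subunit gene cybb, the catalytic core of the phagocyte enzyme, was in 2 Runx123_GFP and 24 cd41_GFPlow cells at 50.3 CPM in Runx123_GFP and 549 CPM in cd41_GFPlow. Its partner cyba was in 10 Runx123_GFP and 32 cd41_GFPlow cells at 154 CPM in Runx123_GFP and 644 CPM in cd41_GFPlow, and 23 of the 24 cybb cells of cd41_GFPlow also had it. The cytosolic subunit genes NCF1 and NCF4 were in 1 Runx123_GFP cell and 21 cd41_GFPlow cells and in 3 Runx123_GFP and 15 cd41_GFPlow cells.

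Enzymes of the pentose phosphate pathway, which makes NADPH, leaned the same way. PGD, an oxidative enzyme of the pathway, was in 10 Runx123_GFP and 26 cd41_GFPlow cells at 99.4 CPM in Runx123_GFP and 423 CPM in cd41_GFPlow. Of 7 measured genes of the pathway 6 had a log2 ratio below 0 (median -1.60). These values cover only the 7 of 8 listed genes that reached 10 CPM in either line. Of the 7, 2 were called higher in cd41_GFPlow (28.6%, against 2.95% of all measured genes), PGD among them. Glutathione and redox genes had 10 of 76 higher in cd41_GFPlow (13.2%) and 1 higher in Runx123_GFP (1.32%, against 1.46% of all measured genes). Among the 10 was gsta.1, a glutathione transferase gene with 0 reads in Runx123_GFP and 58.0 CPM in cd41_GFPlow, in 24 cells with a median of 39.4 CPM over all 43. It also had 0 reads in each of the 4 remaining reporter lines of the series, including the neutrophil line mpx_EGFP, although 16 of its 24 cells carried the neutrophil list.

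Most measured genes of lysosomal enzymes were lower in Runx123_GFP. Of 57 measured genes 50 had a log2 ratio below 0, with a median of -1.59. These values cover only the 57 of 75 listed genes that reached 10 CPM in either line, and not the rest of the family. Of the 57, 9 were called higher in cd41_GFPlow (15.8%, against 2.95% of all measured genes) and 0 higher in Runx123_GFP. The protease genes ctss2.2 and CTSC were at 14.3 CPM in Runx123_GFP and 354 CPM in cd41_GFPlow and at 43.6 CPM in Runx123_GFP and 359.8 CPM in cd41_GFPlow, in 2 Runx123_GFP and 19 cd41_GFPlow cells and in 6 Runx123_GFP and 18 cd41_GFPlow cells. PPT1, which removes fatty acids from proteins, was in 7 Runx123_GFP and 26 cd41_GFPlow cells at 47.3 CPM in Runx123_GFP and 197 CPM in cd41_GFPlow, and its call was lost in cells of at least 1000 genes. Of the 2 measured genes under the symbol NPC2, a cholesterol carrier of the lysosome, one had 0 reads in Runx123_GFP and 76.3 CPM in cd41_GFPlow, in 14 cells, and the other was at 79.6 CPM in Runx123_GFP and 175 CPM in cd41_GFPlow without a call. Gene ASAH1 (acid ceramidase) and the phosphoinositide phosphatase gene INPP5D (SHIP1) were in 2 Runx123_GFP and 18 cd41_GFPlow cells and in 4 Runx123_GFP and 26 cd41_GFPlow cells. Another gene under the symbol ASAH1 had no call and was in 3 Runx123_GFP and 3 cd41_GFPlow cells. The fatty acid elongase gene ELOVL1 was in 13 Runx123_GFP and 35 cd41_GFPlow cells at 84.6 CPM in Runx123_GFP and 420 CPM in cd41_GFPlow, and ELOVL5 in 0 Runx123_GFP and 14 cd41_GFPlow cells at 0 CPM in Runx123_GFP and 120 CPM in cd41_GFPlow.

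The lists of core energy metabolism had no called gene in either direction, where 1.46% of all measured genes were called higher in Runx123_GFP and 2.95% higher in cd41_GFPlow. The 91 measured nuclear genes of the respiratory chain summed to 13964 CPM in Runx123_GFP and 13800 CPM in cd41_GFPlow, and their median log2 ratio was 0.06. The 34 genes of the citric acid cycle summed to 5020 CPM in Runx123_GFP and 5335 CPM in cd41_GFPlow, and the 19 of glycolysis to 6152 CPM in Runx123_GFP and 7126 CPM in cd41_GFPlow. Within glycolysis PKM was at 730 CPM in Runx123_GFP and 761 CPM in cd41_GFPlow and ALDOA at 1117 CPM in Runx123_GFP and 833 CPM in cd41_GFPlow, in 21 Runx123_GFP and 33 cd41_GFPlow cells and in 25 Runx123_GFP and 36 cd41_GFPlow cells. The lists of amino acid and polyamine enzymes (39 genes) and of cholesterol and isoprenoid synthesis (16 genes, 13 of them above 0, median 1.08) also had none. The same held for the lists of folding and secretion in the endoplasmic reticulum (51 genes, 36 below 0, median -0.65) and of apoptosis and survival (35 genes). These lists were matched by symbol and do not hold every gene of a pathway. The spermine oxidase gene SMOX, called higher in cd41_GFPlow, was in none of them.

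Outside the 4 classes, called genes included those of cytoskeletal and secreted products. The tubulin gene tubb1, the isoform of platelets in mammals, was in 21 Runx123_GFP and 2 cd41_GFPlow cells at 325 CPM in Runx123_GFP and 11.7 CPM in cd41_GFPlow, and 10 of the 21 carried the erythroid list. MYL9, a myosin light chain gene, was in 11 Runx123_GFP cells and 1 cd41_GFPlow cell, and RAC3, a small GTPase gene, in 9 Runx123_GFP and 0 cd41_GFPlow cells. The growth factor gene bmp16, a fibronectin gene under the symbol FN1 and THBS1 (thrombospondin) were in 9, 9 and 8 Runx123_GFP cells and in no cd41_GFPlow cell. All the Runx123_GFP cells with MYL9, RAC3, bmp16, FN1 or THBS1 carried the thrombocyte list, which itself holds THBS1. Each of these 5 calls was lost in cells of at least 1000 genes. Runx123_GFP cells with the thrombocyte list but not the erythroid list had a median of 1446 detected genes, and those with the erythroid list 2734. The transglutaminase gene TGM2 was more widespread, in 23 Runx123_GFP and 5 cd41_GFPlow cells at 571 CPM in Runx123_GFP and 20.1 CPM in cd41_GFPlow.

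The haematopoietic GTPase gene rac2 was in 8 Runx123_GFP cells and 35 cd41_GFPlow cells, at 85.2 CPM in Runx123_GFP and 506 CPM in cd41_GFPlow. The annexin ligand gene s100a10b and the annexin gene ANXA2, whose products bind each other in mammals, had 0 reads in Runx123_GFP and were in 22 cd41_GFPlow cells at 1245 CPM (s100a10b) and 19 at 513 CPM (ANXA2). Creatine kinase gene CKB likewise had 0 reads in Runx123_GFP and was in 23 cd41_GFPlow cells at 735 CPM. The complement genes c1qa, c1qb, c1qc and cfh had 0 reads in Runx123_GFP and 175.6 to 405 CPM in cd41_GFPlow, in 12 to 14 cells. Complement, matrix, annexin and S100 genes were the list with the highest share of calls. Of 36 measured, 15 were higher in cd41_GFPlow (41.7%, against 2.95% of all measured genes) and 2 higher in Runx123_GFP (5.56%, against 1.46%). The digestive protease gene CPA1 had 1 read in Runx123_GFP and 67454 in cd41_GFPlow, in 11 cells, 10 of which carried the neutrophil list. Granulin genes, which encode secreted growth factors of phagocytes, were in 2 Runx123_GFP and 16 cd41_GFPlow cells (grna) and 1 Runx123_GFP cell and 14 cd41_GFPlow cells (grna.1).

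The genes with the widest gaps in share were counted in each cell. Of the 15 genes named over all classes as higher in Runx123_GFP, a Runx123_GFP cell had 1 to 14 (median 9) and a cd41_GFPlow cell 0 to 10 (median 0). Of the 15 named as higher in cd41_GFPlow, a Runx123_GFP cell had 0 to 10 (median 0) and a cd41_GFPlow cell 1 to 15 (median 10). These counts describe the genes' own choice and test nothing. Over all 143 genes higher in Runx123_GFP, cells with the erythroid list had 43 to 80 of them, cells with the thrombocyte list 27 to 89 and the 8 cells with neither 20 to 31. Over all 289 genes higher in cd41_GFPlow, cells with the monocyte list had 49 to 195, those with the neutrophil list 21 to 195, and the 8 with neither 22 to 52.

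A few genes with wide gaps did not follow the marker lists. Gene rps11l, named for a ribosomal protein, ranged from 0 to 77.2 CPM with a median of 29.9 CPM over Runx123_GFP cells and from 0 to 16.03 CPM with a median of 3.96 CPM over cd41_GFPlow cells. It was in 30 Runx123_GFP cells and 5 cd41_GFPlow cells, including 13 of the 14 with the erythroid list, 17 of the 26 with the thrombocyte list and all 8 with neither. Reads of copies of ribosomal protein genes may be divided by the counting. In the remaining lines rps11l was in 2.13% of mpx_EGFP, 23.7% of lck_GFP, 54.2% of rag2_GFP and 67.7% of lck_GFP_rag1 cells. Gene si:ch211-114n24.6, which has a clone name, had the widest gap of all, with 1 Runx123_GFP cell and 36 cd41_GFPlow cells, among them 24 of 27 with the monocyte list, 12 of 17 with the neutrophil list and 7 of the 8 with neither. Gene smdt1b, named for a regulator of the mitochondrial calcium channel and singled out after its values were seen, was in 16 Runx123_GFP cells and had 0 reads in cd41_GFPlow, although it was in 31.9% of mpx_EGFP cells. Whether plate, fish or cell type goes with these 3 genes or with gsta.1 was not tested.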

How the data were processed

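Per the labels, single kidney marrow cells were amplified with modified Smart-seq2. The authors deposited whole-number read counts per Ensembl gene and cell, and the submitters' processing notes name STAR, Picard, featureCounts and build GRCz10, with no versions or order. A deposited table of mapping holds, for every well, how many percent of read pairs mapped uniquely and which fraction were PCR duplicates, per the file headers. No molecular identifier is named, so PCR copies count as reads. Cells were placed in lines by their titles, and no cell of either line was left out.

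Counts were scaled to CPM per cell, and over the summed cells of a line. Ratios used a pseudocount of 1 CPM. Directions and medians of all gene lists cover only genes that reached 10 CPM in either line. Totals were 35833548 reads in Runx123_GFP and 47836984 in cd41_GFPlow. CPM and folds carry exact Poisson or binomial 95% intervals and shares Clopper-Pearson intervals, and a fold against 0 reads is a bound at a floor of 3 reads in the other line. As each line is 1 sample, the result is a count of genes by size, and DESeq2-type tests were not run. TMM factors came from edgeR 4.0.16 in R 4.3.3, and the rest from Python 3.11.15 with numpy 2.4.6 and pandas 2.3.3. The calling step was tested on simulated counts.

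Symbols came from a table of gene names. Of the measured genes 323 had none, 336 symbols stood for more than 1 measured gene, and capitals mark symbols as that table writes them. Such genes and other close copies may share reads. The 65 gene lists were symbol patterns, from which 105 symbols that matched by letters alone were removed after values had been seen. The comparison, lists and naming rule were chosen with earlier results of these data known. Over all genes the 15 called genes with the widest gap in share were named per direction, 8 per class and direction, and 2 per family outside the classes. The reporter and marker genes and smdt1b were added, and family members and copies were named beside them. Some genes that this rule names are not reported here.

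Alternatives were a pseudocount of 0.1 CPM, filters of 1 and 50 CPM, 8-fold, 4-fold alone, 1 CPM in a cell, mean CPM per cell, TMM factors, thinning to 200000 reads, cells of at least 1000 genes, and leaving out each gene's highest cell or the most-read cell of each line. Sequences and genome positions are not analysed here.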

Additional observations from a re-analysis of the deposited data

How the results depend on the processing

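Of 100 called named genes none reversed its direction under any of the 12 alternatives, and 51 kept their call under all 12. Among reporter and marker genes without a call the log2 ratio crossed 0 for MYB (0.16, lowest -0.04), GATA2 (1.97, lowest -2.04) and RAG2 (-5.44, highest 0.12). The 8-fold rule ended 36 of these calls, cells of at least 1000 genes 12, thinning to 200000 reads 6, leaving out the most-read cells 6, the filter of 50 CPM 5, the limit of 1 CPM in a cell 3, leaving out each gene's highest cell 2, and mean CPM and TMM factors 1 each (lrrc8da). The counts that moved past 1.5 times were these. With 4-fold alone 1451 genes were higher in Runx123_GFP and 1417 in cd41_GFPlow, and the genes called higher in Runx123_GFP and in cd41_GFPlow were 47 against 64 transporters, 53 against 71 receptors, 54 against 99 metabolic enzymes and 58 against 53 transcription factors. With 8-fold 186 genes were higher in cd41_GFPlow, metabolic enzymes were 4 higher in Runx123_GFP and 21 higher in cd41_GFPlow, and 9 transcription factors were higher in cd41_GFPlow. In cells of at least 1000 genes 15 metabolic enzymes were higher in Runx123_GFP. Over the alternatives other than these fold rules the total was 125 to 192 genes higher in Runx123_GFP and 234 to 347 higher in cd41_GFPlow. No scaling alternative moved the split of calls by over 10 percentage points. After thinning 84.6% of the Runx123_GFP calls and 93.1% of the cd41_GFPlow calls were the same genes, and in cells of at least 1000 genes 76.2% of the Runx123_GFP calls and 91.0% of the cd41_GFPlow calls were. No paired analysis was possible because each line is 1 sample and wells carry no shared replicate. The number of cells limits what 0 reads can show: at 3 cells of the total, 39 Runx123_GFP cells allow a share of up to 7.69% and 43 cd41_GFPlow cells one of up to 6.98%, and low depth per cell can hide a gene besides.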

Other observations

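Gene copies that share a symbol were seldom all called. A copy without a call may still lean the same way, as the copies of HBE1 and NUCB2 did, and both LECT2 genes were called higher in cd41_GFPlow. The symbols described below are mostly ones whose copies differed. Of 336 symbols with more than 1 measured gene 34 had at least 1 gene called, 2 had all of their measured genes called, and 1 had genes called in opposite directions. That symbol was FN1: 1 gene was at 393 CPM in Runx123_GFP and had 0 reads in cd41_GFPlow, and the other was at 10.2 CPM in Runx123_GFP and 227 CPM in cd41_GFPlow, in 1 Runx123_GFP cell and 11 cd41_GFPlow cells. The selectin genes listed as sele and SELE leaned apart as well. The first was at 109 CPM in Runx123_GFP and 5.37 CPM in cd41_GFPlow without a call, and the second had 0 reads in Runx123_GFP and 203 CPM in cd41_GFPlow. ARPC5, an actin-nucleating subunit, had a gene in 2 Runx123_GFP and 25 cd41_GFPlow cells and another in 22 Runx123_GFP and 33 cd41_GFPlow cells, and ITM2B a gene in 12 Runx123_GFP and 37 cd41_GFPlow cells and another in 30 Runx123_GFP and 35 cd41_GFPlow cells. TCIM had a gene at 190.0 CPM in Runx123_GFP and 15.7 CPM in cd41_GFPlow and another with 0 reads in Runx123_GFP and 24.4 CPM in cd41_GFPlow.

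A few further values concern regulators and other products outside the classes. The chromatin list had 1 of 154 genes called, KMT2E, higher in Runx123_GFP (0.65%, against 1.46% of all measured genes), and 0 higher in cd41_GFPlow (against 2.95%). Its share of calls was thus below that of all measured genes in both directions. Of the 154, 106 had a log2 ratio above 0 (median 0.73). The spermine oxidase gene SMOX was in 3 Runx123_GFP and 18 cd41_GFPlow cells, and the dehydrogenase gene DHRS9 had 0 reads in Runx123_GFP and was in 18 cd41_GFPlow cells at 140.0 CPM. The epidermal growth factor family gene HBEGF was in 8 Runx123_GFP cells at 186 CPM and had 0 reads in cd41_GFPlow. Genes rag1 and rag2 (RAG1 and RAG2), which cut antigen receptor loci, were each in 1 cell of each line, RAG1 with 1 read in Runx123_GFP and 7472 in cd41_GFPlow and RAG2 with 52 reads in Runx123_GFP and 5040 in cd41_GFPlow. The Runx123_GFP cell with the RAG1 read had so few reads that 1 read passed 10 CPM.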
